A study of Mus musculus with 40 samples.

Results

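Regulatory T cells (Treg) left unstimulated in culture were compared with Treg activated through CD3 and CD28, by RNA level on Affymetrix arrays. The comparison uses 6 of the 40 arrays of the series, chosen by their titles: 3 of activated Treg and 3 of resting Treg. All came from C57Bl/6 mice of the genotype Foxp3GFP, in which a green fluorescent reporter marks cells that use the Foxp3 gene, and both groups passed the same CD4+ CD45RBlow GFP+ sort gate. Both were cultured for 48 h in RPMI medium with 10% FBS, the activated cells with antibodies to CD3 and CD28 and the resting cells without them. No added IL-2 is named for these cultures. The 2 arrays of resting conventional T cells (CD4+ CD45RBhi GFP-, of the same strain and culture, unstimulated) entered the fit to help estimate the spread and are given only as a level of reference. The other 32 arrays belong to a separate experiment with a semaphorin ligand, of which 16 arrays from WT cells are used at the end. The rest, from Treg with Nrp1 deleted (NRP KO in the titles), entered only the estimate of spread of that fit. The labels name bone marrow as the source of the 8 sorted samples, give no sex or age, and do not say that arrays of a group came from separate animals or cultures. P-values therefore measure the spread between these arrays, which may be technical.

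As background, the T cell receptor and its co-receptor CD28 signal through calcium, MAP kinases and NF-kB. Within hours these switch on immediate early transcription factors of the EGR and NR4A families, together with IRF4, which scales with the strength of the receptor signal. Treg depend on the receptor signal for their suppressive function, but are known to divide poorly in culture when it is given without IL-2. A cell that leaves rest loses quiescence factors such as KLF2, first copies its DNA under E2F control and then builds the mitotic apparatus, whose genes share promoter elements bound by the DREAM and MMB complexes.

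The arrays of the comparison fall into 2 classes by a control on the array itself, the Actb signal at the 3' end of the transcript minus that at the 5' end, which grows when the labelled RNA does not reach the 5' end. On the log2 scale this difference was 5.87, 6.17 and 2.31 in activated arrays 1, 2 and 3, and 5.90, 2.50 and 2.67 in resting arrays 1, 2 and 3. With the boundary at 4, the high class held activated 1, activated 2 and resting 1, and the low class held activated 3, resting 2, resting 3 and both conventional T cell arrays (1.24 and 1.54). The sample codes in the titles of the high class are all lower than those of the low class. Each class holds both Treg groups, so counts of genes are given without the class and with it as a term of the fit ("with the class"). The values of single genes are without it unless stated otherwise, and of the named genes that passed without it only Chek1 and Tdrp lost their call with it. With 8 arrays and 3 group means, 5 residual degrees of freedom remained, and 4 with the class. Arrays were numbered within a group by accession order only.

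The labels were first checked against marker genes. Foxp3, the factor that defines the Treg lineage, had log2 signals of 10.74, 10.91 and 10.77 in the activated arrays and 10.38, 10.33 and 10.60 in the resting ones, against a mean of 4.0 in conventional T cells. The 9 measured T cell identity genes had a mean log2 signal between 10.98 and 11.49 in each of the 6 Treg arrays. Markers of other cells were not equal between arrays. The mean over 16 myeloid markers was 7.13 in activated 1 and between 5.27 and 5.86 in the other 5 Treg arrays, with S100a8, a calcium-binding protein of neutrophils, at 11.29 in activated 1 and between 4.10 and 6.22 elsewhere. S100a9, its partner, reached 10.32 in activated 1 and lay between 3.81 and 5.84 in the others. The mean over 9 dendritic cell and MHC class II markers was highest in resting 3, at 7.04, followed by 6.64 in activated 1, with the other 4 Treg arrays between 5.88 and 6.30. None of the 16 myeloid, 9 dendritic cell, 9 B cell or 4 erythroid markers passed the limma test in either fit, and none of them had an unadjusted p under 0.05. Of 10 CD8 and NK markers 0 passed in either fit, with 1 higher and 1 lower at an unadjusted p under 0.05 in limma. These tests compare groups and cannot show whether a single array holds other cells. The part of such cells in the results was not tested, and the counts without activated 1 are given beside the lists in which genes passed.

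A small share of the genes was called changed with activation, and a gene not called with 3 arrays in each group is not shown to be unchanged. Of 18194 genes tested with limma, 95 rose (0.522%) and 40 fell (0.22%) at a Benjamini-Hochberg adjusted p under 0.05, and 2095 had an unadjusted p under 0.05. With the class, 217 rose (1.19%) and 101 fell (0.555%), and 132 of the first 135 genes were among them. All 135 kept their direction with the class, within each class, and with each Treg array left out in turn. This was fixed in advance, since in all 95 that rose and all 40 that fell the 2 groups did not overlap. Over all genes, 6.03% had every activated array above every resting one, and 6.94% below. Counts within a list below are to be read against these shares over all genes. For an unadjusted p under 0.05 in limma the reference is 2095 of 18194. Without activated 1 it is 1829, and 2876 with the class. The number of genes called moved between fits. With the 6 Treg arrays alone 36 genes were called, 30 higher and 6 lower. Without activated 1 the call remained for 12 of the 135, 11 of them higher, while 34 genes were called without resting 2 and 67 without activated 3. With the class, 190 genes were called without activated 1, 171 without activated 2, 49 without resting 1, 676 without resting 3 and 0 without activated 3 (1787 at an unadjusted p under 0.05 in limma). Centred on the median of each array, 87 genes rose and 59 fell, and with array weights 380 rose and 577 fell. Of the 95 genes that rose, 39 belong to lists for the cell cycle (G1 and S entry, DNA replication, mitosis, DNA repair), 12 to lists for activation (receptor-induced factors, feedback inhibitors, costimulatory and inhibitory receptors, suppressive mediators) and 42 to none of the 34 lists. Of the 40 that fell, 34 belong to no list. In bulk samples, a change in the share of cells that use a gene and a change in the RNA per cell cannot be told apart.

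Transcription factors that the receptor induces were among the genes that rose. Egr3 (Entrez 13655), a zinc finger factor of the EGR family, had log2 signals of 10.21, 10.03 and 10.76 in the activated arrays and 4.78, 3.64 and 4.80 in the resting ones. Its increase of 5.93 ± 0.33 (SE; limma adjusted p = 0.000968) was 5.94 with the class (adjusted p = 0.00212). Resting signals of Egr3, and of Cep55, Uhrf1 and Lag3 below, lay under the median over all genes of their arrays (5.65 to 5.80). The same holds for other genes named below, among them Shcbp1, Tpx2, Nuf2, Cenpe, Aspm, Cenpk, Bub1, Mcm10, E2f8, Clspn and Dusp6. No detection calls are used here, so differences of such genes are given on the log2 scale without a fold. The other probe set of Egr3, with a mean signal of only 5.7, gave -0.03 (adjusted p = 0.972). Egr2 (Entrez 13654), its close relative, had 10.50, 10.04 and 10.62 against 6.22, 5.87 and 4.21. The Egr2 groups lay far apart, with an increase of 4.95 ± 0.47 (limma adjusted p = 0.00678), and the other probe set of Egr2 gave 4.53 (adjusted p = 0.0186). Irf4 (Entrez 16364), which drives the effector programme of T cells, had 11.24, 10.98 and 11.42 against 7.90, 7.39 and 7.16. It rose by 3.73 ± 0.27 (limma adjusted p = 0.00333), and unlike Egr3 it was already higher in resting Treg than in conventional T cells (mean 5.22) by more than the spread between arrays. The other probe set of Irf4, with a mean signal of only 4.65, gave 0.74 (limma adjusted p = 0.472).

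**Figure D1:**
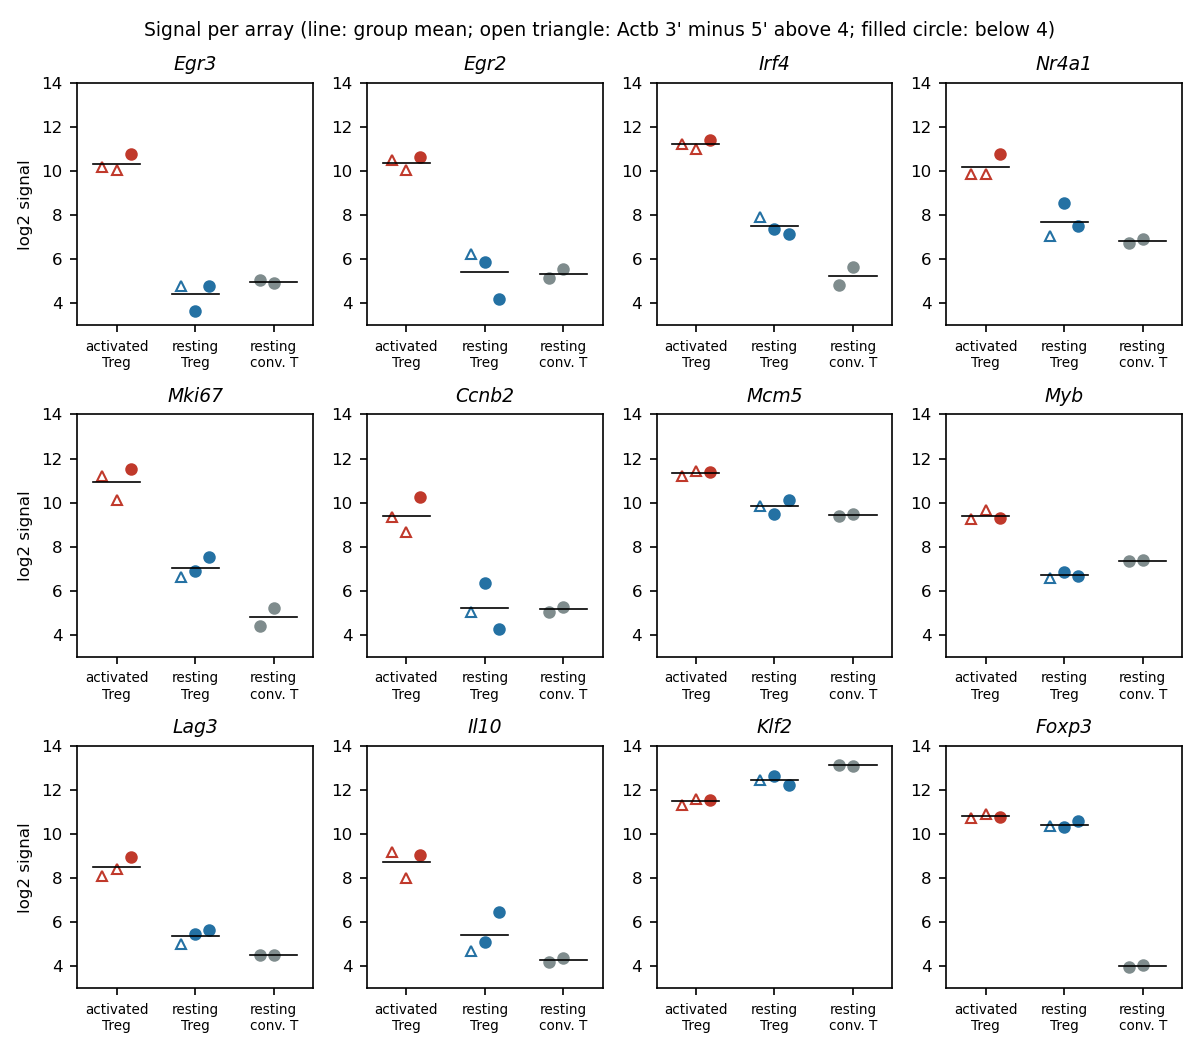
Log2 signal of 12 genes in each of the 8 arrays, by group (activated Treg, resting Treg, resting conventional T cells). Points are arrays, open triangles those with an Actb 3' minus 5' difference above 4 and filled circles those below it, and lines are group means. For the 10 genes from Egr3 to Il10 every activated array lies above every resting Treg array, Klf2 runs the other way, and Foxp3 stays between 10.33 and 10.91 in all 6 Treg arrays.

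Of the 31 measured genes on the list of receptor-induced transcription factors, 7 rose and 0 fell, and 9 rose with the class. The list's median difference was 0.47, against 0.0035 over all genes, and in 14 of the 31 all activated arrays lay above all resting ones, which held for 6.03% of all genes. Beside Egr1, Egr2, Egr3 and Irf4, the others that rose were Nr4a1, Nr4a3 and Ikzf3. Nr4a1 (Nur77), an orphan nuclear receptor widely used as a reporter of receptor signalling, had 9.89, 9.88 and 10.78 against 7.04, 8.54 and 7.51, an increase of 2.49 (limma adjusted p = 0.0389). Nr4a3 gave 2.59 (adjusted p = 0.0401) and Egr1 2.66 (adjusted p = 0.00431), from a resting level of Egr1 that was already between 8.80 and 9.24. Ikzf3 (Aiolos), an Ikaros family factor, rose by 1.67 (adjusted p = 0.0495). Prdm1 (Blimp-1), a factor of effector Treg that restrains IL-2, rose with the class only, by 1.41 (adjusted p = 0.0321), as did Nfkb2, by 0.75 (adjusted p = 0.0467). Myc, a driver of growth, had 8.31, 8.09 and 8.08 against 6.63, 6.78 and 4.80, and its difference of 2.09 did not pass the limma test in either fit (adjusted p = 0.10 and 0.117). Without activated 1, 3 members of the list rose, and 6 with the class.

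The Egr2 promoter shows the element through which serum response factor acts on early genes, the CArG box. RefSeq lists 5 windows for Egr2, and the stretch below, of assembly GRCm38.p6, covers 170 bases before to 30 after one of the starts, with the CArG box in capitals. Egr3 has no window in the table.
Egr2 (chr10:67537699-67537898, plus strand): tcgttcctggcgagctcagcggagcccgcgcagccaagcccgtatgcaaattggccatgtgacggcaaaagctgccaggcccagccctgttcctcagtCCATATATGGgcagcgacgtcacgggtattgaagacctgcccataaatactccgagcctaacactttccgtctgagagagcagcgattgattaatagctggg
The CArG box was in a window of 3 of the 46 genes of the factor and feedback lists that have windows (6.52%), and in 1.58% of the 14453 genes with a window of 300 bases (250 before to 50 after a start, both strands). The EGR word GCGNGGGCG was in 11 of the 46 (23.9%) and in 10.1% of all. Of the 10 members with a window that rose with the class, 2 held the CArG box and 2 the EGR word. A match describes letters and is not a binding site.

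Some of the genes that limit receptor signalling rose as well. Of 31 feedback inhibitors, 2 rose, Dusp6 and Spry1, and 6 rose with the class, where Dusp4, Dusp5, Nab2 and Socs2 joined them. Spry1 (Sprouty-1), an inhibitor of the Ras to ERK route, had 9.42, 9.40 and 9.48 against 7.78, 7.50 and 7.72. Both Spry1 groups were tight, and it rose by 1.77 ± 0.20 (limma adjusted p = 0.0115). Dusp6, the phosphatase of ERK, rose by 2.35 (adjusted p = 0.0227). Nab2, a co-repressor that binds EGR factors, rose with the class by 1.09 (adjusted p = 0.0352). Without activated 1, 0 feedback inhibitors passed the limma test (7 at an unadjusted p under 0.05), and 2 rose with the class. In the proximal machinery of the receptor itself, 0 of 23 genes passed in either limma fit and 3 had an unadjusted p under 0.05. The latter held for 2095 of 18194 over all genes. The median difference was 0.05, with -0.07 within the high Actb class and 0.26 within the low class. Without activated 1, 0 of the 23 passed in either limma fit. At an unadjusted p under 0.05 there were then 0 without the class and 8 with it (1829 and 2876 of 18194 over all genes).

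Among receptors of activation and costimulation, 1 of 25 rose, 1 fell, and 5 rose with the class. Tnfrsf9 (4-1BB), a costimulatory receptor of the TNF family, had 11.98, 11.75 and 11.42 against 8.99, 8.23 and 9.23. It rose by 2.90 ± 0.27 (limma adjusted p = 0.00678), a 7.46-fold increase, with no overlap between the groups. With the class, Tnfrsf4 (OX40) rose by 1.58 (adjusted p = 0.00997), Cd44 by 1.02 (adjusted p = 0.0231), Cd200 by 0.89 (adjusted p = 0.0201) and Il2ra by 1.38 (adjusted p = 0.0352). Cd86, better known on antigen-presenting cells as a ligand of CD28 and CTLA-4, fell. It had 6.59, 6.65 and 6.94 against 7.59, 7.69 and 7.83, a difference of -0.98 ± 0.15 (limma adjusted p = 0.0372). Without activated 1, 0 of these 25 passed in limma (12 at an unadjusted p under 0.05), while with the class 4 rose and 1 fell. Of 12 inhibitory receptors 1 rose, Lag3, and it also passed without activated 1 in both fits.

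No gene of the lineage list passed without the class. Of 22 Treg lineage genes 0 passed the limma test, 9 had an unadjusted p under 0.05, and with the class 2 rose, Il2ra and Socs2. The list's median difference was 0.37 (0.55 with the class), and 17 of the 22 were above 0. In 7 all activated arrays lay above all resting ones (6.03% of all genes), and in 2 below (6.94%). Without activated 1 neither passed, nor did any other gene of the list, in either limma fit (9 and 14 at an unadjusted p under 0.05). Foxp3 differed by 0.37 (adjusted p = 0.347), Ctla4 by 0.36 (adjusted p = 0.445) and Ikzf2 (Helios) by 0.25 (adjusted p = 0.663). For Foxp3 and Ctla4 all activated arrays lay above all resting ones, while the groups overlapped for Ikzf2. Nrp1 (neuropilin-1), the receptor that the series is about, had 11.96, 11.84 and 11.64 against 12.64, 12.56 and 12.63. All activated arrays lay below all resting ones, and the difference of -0.80 ± 0.17 did not pass (limma adjusted p = 0.0907, and 0.0607 with the class). Il2ra (CD25), the high-affinity chain of the IL-2 receptor, had 10.72, 11.05 and 10.53 against 9.76, 9.24 and 8.54, with a difference of 1.59 (adjusted p = 0.0605) that passed with the class only.

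Of 16 genes for suppressive and repair mediators, 2 rose in both fits, Lag3 and Il10. Lag3, a receptor for MHC class II that restrains T cells, had 8.12, 8.40 and 8.98 against 5.0, 5.49 and 5.64. It rose by 3.12 ± 0.25 (limma adjusted p = 0.00506) and was among the 11 genes that stayed called with each of the 6 Treg arrays left out. Il10, the anti-inflammatory cytokine, had 9.17, 8.01 and 9.06 against 4.67, 5.08 and 6.46, an increase of 3.34 ± 0.47 (limma adjusted p = 0.0268). The resting arrays of Il10 spread widely (SD 0.94, n = 3), and without activated 1 it kept its size (3.13) but not its call (adjusted p = 0.107). Gzmb, the protease of cytotoxic granules, differed by 1.51 (adjusted p = 0.0833) and Fgl2 by 1.28 (adjusted p = 0.181). None of 18 effector cytokines and none of 13 chemokine ligands passed the limma test in either fit, and 0 and 2 of them had an unadjusted p under 0.05. Tnf differed by 0.30 and Il17a by 0.36, both at signals under 6.1.

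The broadest change was in the genes of mitosis. Of 70 measured genes of spindle, kinetochore and chromosome segregation, 27 rose, 0 fell and 41 rose with the class. The median difference was 1.90, 65 of the 70 were above 0 (9199 of 18194 over all genes), and in 58 all activated arrays lay above all resting ones. In 1, Pttg1 (named after its values were seen), they lay below. Mki67 (Entrez 17345), which coats mitotic chromosomes and is the usual marker of cycling cells, had 11.21, 10.13 and 11.54 against 6.63, 6.91 and 7.51. Every activated array lay above every resting one, and Mki67 rose by 3.94 ± 0.40 (limma adjusted p = 0.00782), 15.3-fold. Resting Treg were themselves above conventional T cells (mean 4.81). Cep55, which acts in the final separation of daughter cells, had 9.27, 8.26 and 9.99 against 5.24, 4.47 and 3.75, an increase of 4.69 ± 0.48 (limma adjusted p = 0.00782). Ccnb2 (cyclin B2) had 9.33, 8.65 and 10.25 against 5.03, 6.37 and 4.26, an increase of 4.19 (adjusted p = 0.0205). For all 3 genes activated 2 was the lowest of the activated arrays, and the list's median signal was 8.06, 7.21 and 8.68 in activated 1, 2 and 3 against 5.21, 5.49 and 6.03 in the resting ones.

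Other members that rose act at each step of division. Cenpk rose by 3.85 (adjusted p = 0.0121), Cenpe by 3.02 (adjusted p = 0.00813), Cenpf by 3.26 (adjusted p = 0.0446) and Nuf2 by 2.93 (adjusted p = 0.0351), all parts of the kinetochore, where microtubules attach. Of the checkpoint that waits for attachment, Bub1b rose by 3.35 (adjusted p = 0.0151), while Bub1 (2.69), Mad2l1 (1.16) and Birc5 (survivin, 2.86) passed only with the class. Cdca8, a subunit with Birc5 of the chromosomal passenger complex, rose by 4.10 (adjusted p = 0.0285). Top2a, which untangles chromosomes, rose by 3.63 (adjusted p = 0.0257), and Nusap1, Aspm and Tpx2 of the spindle by 3.55, 3.44 and 3.15. Cdk1, the kinase that starts mitosis, had 8.19, 7.09 and 9.71 against 4.59, 4.65 and 6.89, with resting 3 close to activated 2. Its difference of 2.96 passed only with the class (adjusted p = 0.15 without it and 0.0419 with it), and the same holds for Aurkb (2.18), a kinase of the chromosomal passenger complex. Shcbp1 rose by 3.82 ± 0.33 and was the member of this list called with every Treg array left out. Without activated 1 the list kept its median (1.93) but 2 members were called, and 25 with the class.

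Promoters of this list share the letters of 2 elements of cell cycle genes, the CHR element TTTGAA and the CCAAT box CCAAT. In the 3 stretches below (RefSeq, GRCm38.p6, 170 bases before to 30 after the start, read along the gene) both are in capitals on either strand, and in Cdca8 a CHR and a reversed CCAAT run into each other.
Ccnb2 (chr9:70421525-70421724, minus strand): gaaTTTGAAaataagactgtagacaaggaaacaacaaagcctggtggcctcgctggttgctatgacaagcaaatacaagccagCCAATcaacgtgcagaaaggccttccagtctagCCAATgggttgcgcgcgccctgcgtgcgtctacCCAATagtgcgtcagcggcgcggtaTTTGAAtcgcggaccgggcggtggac
Cdca8 (chr4:124936888-124937087, minus strand): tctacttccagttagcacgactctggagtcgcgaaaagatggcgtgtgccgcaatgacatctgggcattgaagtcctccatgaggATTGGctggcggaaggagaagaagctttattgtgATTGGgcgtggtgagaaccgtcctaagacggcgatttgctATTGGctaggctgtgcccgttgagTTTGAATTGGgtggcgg
Top2a (chr11:99024160-99024359, minus strand): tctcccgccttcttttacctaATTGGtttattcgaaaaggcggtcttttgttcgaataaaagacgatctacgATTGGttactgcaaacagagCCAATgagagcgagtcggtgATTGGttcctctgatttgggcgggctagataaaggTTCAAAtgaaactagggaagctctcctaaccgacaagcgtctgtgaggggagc
The CHR letters were in 38 of the 57 mitosis genes with a window (66.7%) and in 15.7% of the 14453 genes with a window. A CHR and a CCAAT in the same window were in 30 of the 57 (52.6%) and in 6.21% of all. Of the 34 with a window that rose with the class, 67.6% held the CHR, 76.5% the CCAAT box and 58.8% both in the same window. Of the 23 others these shares were 65.2%, 56.5% and 43.5%. The differences between the shares were not tested.

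**Figure D2:**
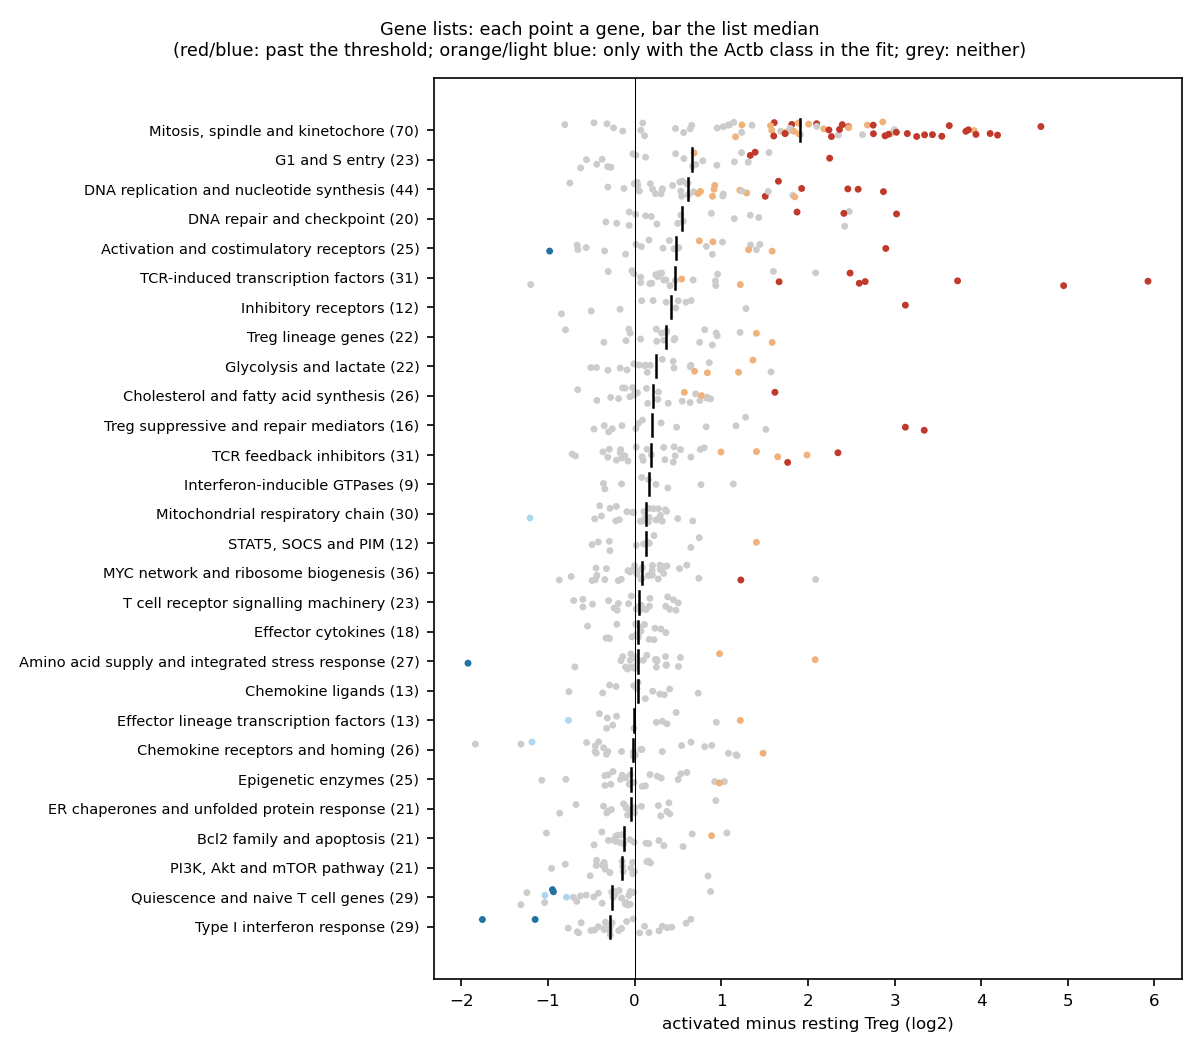
Activated minus resting Treg (log2) for the members of 28 gene lists, each point a gene, with the number measured in brackets and a bar at the list's median. Red and blue points rose and fell in the limma fit, orange and light blue ones only with the class, and grey ones in neither. The mitosis list stands apart with a median of 1.90, and the list of type I interferon genes has the lowest, at -0.28.

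Genes of DNA replication had a lower median difference than those of mitosis. Of 44, 6 rose, 0 fell, and 14 rose with the class. The list's median difference was 0.62, with 40 of 44 above 0. Mcm5, a subunit of the replicative helicase, had 11.23, 11.42 and 11.37 against 9.86, 9.49 and 10.14. The activated arrays lie close together, and Mcm5 rose by 1.51 ± 0.18 (limma adjusted p = 0.0151), from a resting level near that of conventional T cells. Mcm10 rose by 2.46 (adjusted p = 0.00678), Rrm2, the ribonucleotide reductase subunit made in S phase, by 2.58 (adjusted p = 0.00982), and Pole2 and Rfc4 by 1.93 and 1.66. Uhrf1, which copies DNA methylation onto the new strand, had 8.20, 7.66 and 7.20 against 4.96, 4.85 and 4.63. It rose by 2.87 ± 0.25 (limma adjusted p = 0.00519), and was called with every Treg array left out. Asf1b, Fen1, Gins2, Mcm3, Rfc5, Prim1, Ung and Gmnn were added with the class, with differences in that fit between 0.83 (Ung) and 2.15 (Asf1b). Without activated 1, 1 member of the list rose, and 9 with the class.

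The E2F words TTTCCCGC, TTTCGCGC, TTTGCCGC and TTTGGCGC, on either strand, were in 15 of the 36 replication genes with a window (41.7%) and in 3.81% of all genes. Of the 12 with a window that rose with the class, 4 held such a word (33.3%). In the Mcm5 stretch (RefSeq, GRCm38.p6, 170 bases before to 30 after the start) the capitals mark 2 such words that overlap, one on each strand.
Mcm5 (chr8:75109339-75109538, plus strand): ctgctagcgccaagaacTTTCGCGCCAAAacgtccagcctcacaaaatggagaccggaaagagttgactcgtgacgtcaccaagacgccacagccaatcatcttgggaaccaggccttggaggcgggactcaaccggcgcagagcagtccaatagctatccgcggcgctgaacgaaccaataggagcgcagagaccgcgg
Of 23 genes of G1 and S entry, 3 rose and 4 rose with the class. E2f8, a repressor in the E2F family, rose by 2.25 (adjusted p = 0.0161), the D-type cyclin Ccnd2 by 1.39 (adjusted p = 0.0192), and Tfdp1, the DNA-binding partner of E2F, by 1.33 (adjusted p = 0.0209). E2f1 rose with the class only, by 0.84 (adjusted p = 0.0463). Of 20 genes of DNA repair and the S phase checkpoint 3 rose, Chek1 by 3.02, Clspn by 2.41 and Rad54l by 1.87, and Chek1 lost its call with the class (adjusted p = 0.055). Without activated 1, 0 genes of these 2 lists passed in limma (10 and 7 at an unadjusted p under 0.05), and with the class 3 of G1 and S entry and 2 of repair rose. Among genes in no list, Pclaf, a clamp-binding protein of replicating cells, rose by 3.61, Fignl1 by 3.37, Trpm1 by 3.25 and Cenpp, a further kinetochore subunit, by 3.01.

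Myb, a factor of cycling blood cells, was named after its values were seen. It had 9.26, 9.64 and 9.30 against 6.6, 6.86 and 6.67, with 7.34 and 7.38 in conventional T cells. Myb was thus lowest in resting Treg, with an SD of 0.21 in activated and 0.13 in resting Treg (n = 3 each), and it rose by 2.69 ± 0.16 (limma adjusted p = 0.000968). The 2 other probe sets of Myb gave 2.79 (adjusted p = 0.00547) and 1.21 (adjusted p = 0.0767). Hivep3 (2.24) and Sh3bp2 (1.66) were chosen in the same way, from the 11 genes called with every Treg array left out, which also hold Egr1, Egr3, Irf4, Lag3, Shcbp1, Uhrf1, Trpm1 and Patl2.

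Few genes of the metabolic lists passed without the class. Of 22 genes of glycolysis 0 passed, 7 had an unadjusted p under 0.05, and with the class 4 rose: Tpi1 by 1.73, Eno3 by 1.40, Pgk1 by 1.06 and Gapdh by 1.00 (limma adjusted p between 0.0306 and 0.0472). Activated 3 had the highest median of this list, 10.76, against 9.92 and 9.98 in activated 1 and 2, and resting 3 (10.28) lay above those 2 arrays. Without activated 1, 1 of the 4 was called with the class. Of 26 genes of sterol and fatty acid synthesis Scd2, a stearoyl-CoA desaturase, rose by 1.62 (adjusted p = 0.0272), joined with the class by Idi1 and Stard4. Of 36 genes of the MYC network and ribosome biogenesis 1 rose, Nhp2, a protein that guides RNA modification, by 1.23 (adjusted p = 0.0209). The respiratory chain (30 genes) had no rise in either fit, and with the class Ppargc1b, a coactivator of mitochondrial genes, fell by 1.46 (adjusted p = 0.00719). In the list of amino acid supply and stress response, Trib3, a pseudokinase induced by ATF4, had 7.04, 7.08 and 7.15 against 8.66, 9.34 and 9.05. Trib3 fell by 1.92 ± 0.19 (limma adjusted p = 0.00769), while with the class Psat1 and Mthfd2, of serine synthesis and folate metabolism, rose by 2.40 and 0.91. In the lists for ER chaperones (21 genes) and the PI3K pathway (21), 0 genes passed in either limma fit, with 2 and 6 at an unadjusted p under 0.05. Without activated 1, 0 genes of these lists passed in limma (2 to 8 in each at an unadjusted p under 0.05). With the class Ppargc1b fell there too, 2 rose in sterol synthesis and 1 in the MYC list, and in the amino acid list 1 rose and 1 fell.

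Quiescence genes lay lower as a group. Of 29 genes of quiescence and naive T cells, 28 had a difference below 0, and in 9 all activated arrays lay below all resting ones (6.94% of all genes). The list's median was -0.26. The members that fell were Klf2 and Tsc22d3, and with the class also Klf3 and Klf6. Klf2, which keeps T cells at rest and drives their exit from lymphoid tissue, had 11.32, 11.60 and 11.57 against 12.46, 12.62 and 12.25, and 13.12 on average in conventional T cells. The order of the 3 groups held in every array, and Klf2 fell by 0.95 ± 0.16 between resting and activated Treg (limma adjusted p = 0.0433). Tsc22d3 (GILZ), a target of FOXO and glucocorticoids, fell by 0.94 (adjusted p = 0.0476). S1pr1, a target of KLF2 that guides egress, differed by -1.31 and did not pass (adjusted p = 0.21). Without activated 1, 0 of the list fell in either limma fit (13 of 29 at an unadjusted p under 0.05, and 16 with the class). The median was then -0.46, 6 of the 29 had a difference above 0, and 1 member rose with the class (Nsg2, named after its values were seen).

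**Figure D3:**
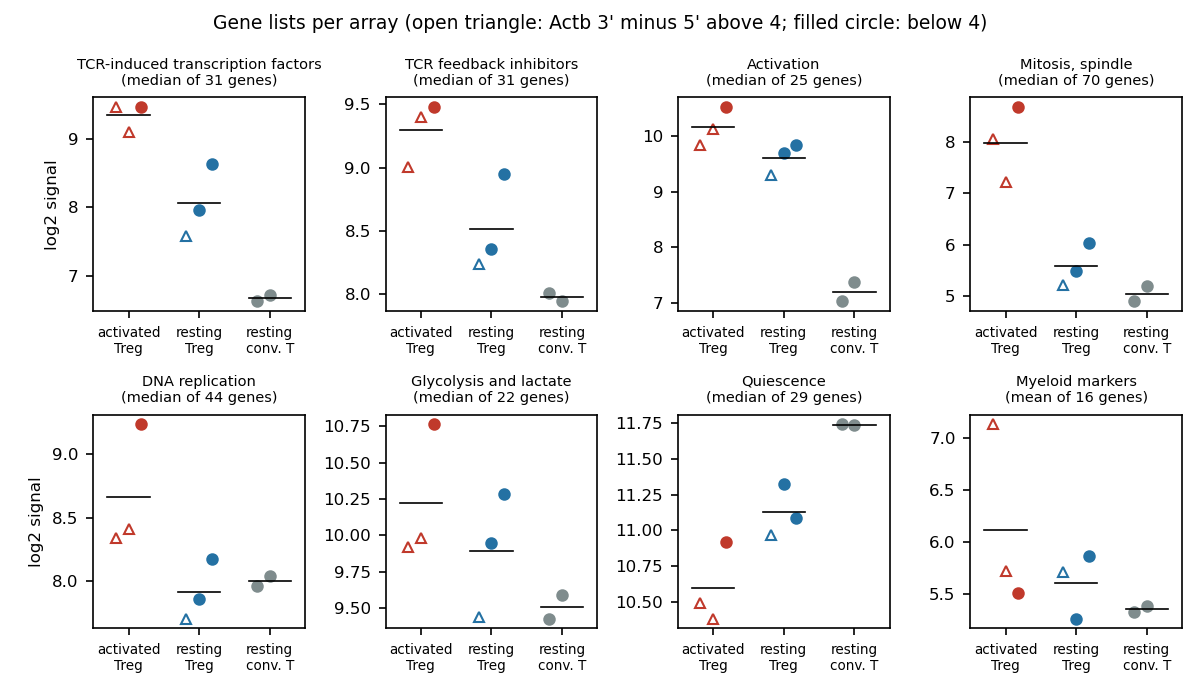
Median log2 signal of 7 gene lists and mean of the myeloid markers in each of the 8 arrays, by group, with open triangles for arrays of the high Actb class and filled circles for those of the low class. The mitosis panel separates activated (7.21 to 8.68) from resting Treg (5.21 to 6.03), the quiescence panel runs the other way, the glycolysis panel overlaps, and activated 1 stands alone in the myeloid panel at 7.13.

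The genes that fell most are a mixed group. Tdrp had the largest decrease, with 6.75, 7.66 and 8.16 against 10.09, 10.57 and 9.22, a difference of -2.43 ± 0.42 (limma adjusted p = 0.0476). The activated arrays of Tdrp spread widely, and its call was lost with the class (adjusted p = 0.0566). Patl2 had 7.76, 7.82 and 8.03 against 9.50, 9.69 and 9.35, and its decrease of 1.64 ± 0.15 (limma adjusted p = 0.00678) was called with every Treg array left out, the only one of the 40 with that property. Others include Vipr1, a receptor for vasoactive intestinal peptide (-1.80), the potassium channel gene Kcna2 (-1.75), Rflnb (-1.73), Rhob, a small GTPase (-1.67), and Axin2, a negative regulator and target of Wnt signalling (-1.25). Of 29 genes of the type I interferon response 2 fell in both fits. Ifit1bl1 had 9.72, 10.13 and 10.87 against 11.74, 12.20 and 12.06, a difference of -1.76 (limma adjusted p = 0.0455), and Ifit2 had -1.15 (adjusted p = 0.044). The interferon list had 9 of 29 members above 0 and a median of -0.28, and without activated 1 it had 0 calls in limma (6 at an unadjusted p under 0.05) and 1 decrease with the class. Among 26 chemokine receptors and homing genes none passed without the class, 9 had an unadjusted p under 0.05 in limma, and with it Ccr8, a receptor of tissue Treg, rose by 1.71 (adjusted p = 0.0221) and Itga4 fell by 1.04 (adjusted p = 0.0352). Without activated 1, 1 of these 26, Ccr8, rose with the class. In the 6 remaining lists no gene passed without the class in limma: the Bcl2 family (21 genes, 4 at an unadjusted p under 0.05), epigenetic enzymes (25 and 3), STAT5, SOCS and PIM genes (12 and 4), effector lineage factors (13 and 3), interferon-inducible GTPases (9 and 2) and CD8 and NK markers (10 and 2). With the class, Bcl2l1 (Bcl-xL), which protects from apoptosis, rose by 0.98 (adjusted p = 0.0196), Ezh2, the histone methyltransferase of Polycomb, rose by 1.35 (adjusted p = 0.0476), and the nuclear receptor gene Rora fell by 0.75 (adjusted p = 0.0372). Without activated 1, only Bcl2l1 of these 3 passed with the class.

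The difference could be measured within each Actb class, in the high class as the mean of activated 1 and 2 minus resting 1 and in the low class as activated 3 minus the mean of resting 2 and 3. Egr3 differed by 5.34 in the high class and 6.54 in the low class, Mki67 by 4.04 and 4.32, Lag3 by 3.26 and 3.41, and Klf2 by -1.0 and -0.87. For some mitosis genes the low class gave more: Cep55 differed by 3.53 and 5.88, and Chek1, of the repair list, by 1.57 and 4.43. The median of the mitosis list was 1.87 and 2.46, that of the myeloid markers 0.49 and 0.07. A limma test of the difference between the classes called 0 of 18194 genes (0.0%, with 702 at an unadjusted p under 0.05), with 3 residual degrees of freedom. Each of these differences has a single array on 1 side, whose spread is taken to be like that of the other groups. Genes were called within the low class (49) and not within the high class (0 in limma, with 1787 at an unadjusted p under 0.05), which is no test of a difference between the classes.

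**Figure D4:**
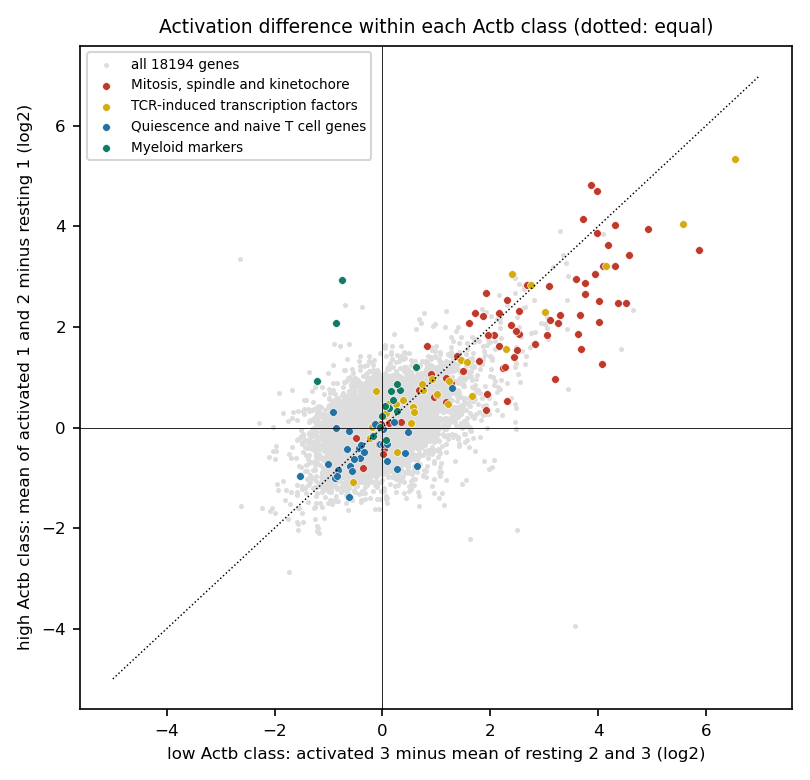
Activated minus resting Treg (log2) of each gene in the low Actb class (x axis) against the high Actb class (y axis), for all 18194 genes in grey and 4 lists in colour, with a dotted line where both are equal. The medians of the mitosis list (2.46 and 1.87) and of the receptor-induced factors (0.74 and 0.63) are above 0 in both classes, though not every member is. Egr3 lies at 6.54 and 5.34, while S100a8 (-0.74 and 2.94) and S100a9 (-0.87 and 2.08) among the myeloid markers lie high in the high class only.

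The ligand experiment, with no array in common, gave a further readout of the genes that activation changed. There, WT Treg (CD4+ CD45RBlow YFP+, from mice with a Foxp3-driven Cre and an unmodified Nrp1 gene) were stimulated with plate-bound antibody to CD3 (1 µg/mL), antibody to CD28 (2 µg/mL) and IL-2 (100 U/mL), with immobilised Sema4a-Ig, a fusion protein of semaphorin-4a, or control IgG1 (10 µg/mL). The deposited values carry only the difference within each of 8 pairs of arrays, since every pair has the same mean. Of the 95 genes that rose with activation 90 were measured, and 85 had a mean Sema4a-Ig minus IgG1 difference below 0 (54.1% of the 16729 genes shared by both experiments). Of these 90, 8 were called lower in limma (2.9% of all) and 0 higher (2.86%), and 0 of the 90 had a higher mean at an unadjusted p under 0.05. Their median difference was -0.25 and was below 0 in each of the 8 pairs, from -0.73 to -0.02. The median over all shared genes ranged from -0.05 in pair 3 to 0.01 in pair 6. Of the 90 genes, 86 were lower in pair 3 and 47 in pair 6. Of the 40 genes that fell, 5 had a mean below 0, 8 were called higher and 0 lower (1 lower at an unadjusted p under 0.05), and the median was 0.17, with pairs between -0.00 and 0.33.

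The 8 genes that rose with activation and were lower with Sema4a-Ig were Spry1, Lag3, Irf4, Kif4, Hells, Nr4a3, Nhp2 and Oxct1. Spry1 was lower in 8 of 8 pairs, by 0.66 ± 0.14 (SE; limma adjusted p = 0.00765), Nr4a3 in 8 of 8 (-0.41, adjusted p = 0.019) and Irf4 in 7 of 8 (-0.50, adjusted p = 0.0493). The 8 that fell with activation and were higher with the ligand were Klf2, Ifit1bl1, Tsc22d3, Ppm1h, Nr1d2, L1cam, Cbx7 and Cd86. Klf2 was higher in 8 of 8 pairs, by 1.05 ± 0.13 (limma adjusted p = 0.000392), and Ifit1bl1 in 8 of 8, by 1.13 (adjusted p = 0.000392). Not every activation gene passed there: Tnfrsf9 differed by -0.01 (adjusted p = 0.973), Mki67 by -0.15 (adjusted p = 0.283) and Myb by 0.15 (adjusted p = 0.347). Hells, Oxct1, Ppm1h, Nr1d2, L1cam and Cbx7 were chosen after their values were seen, because they passed in both experiments.

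**Figure D5:**
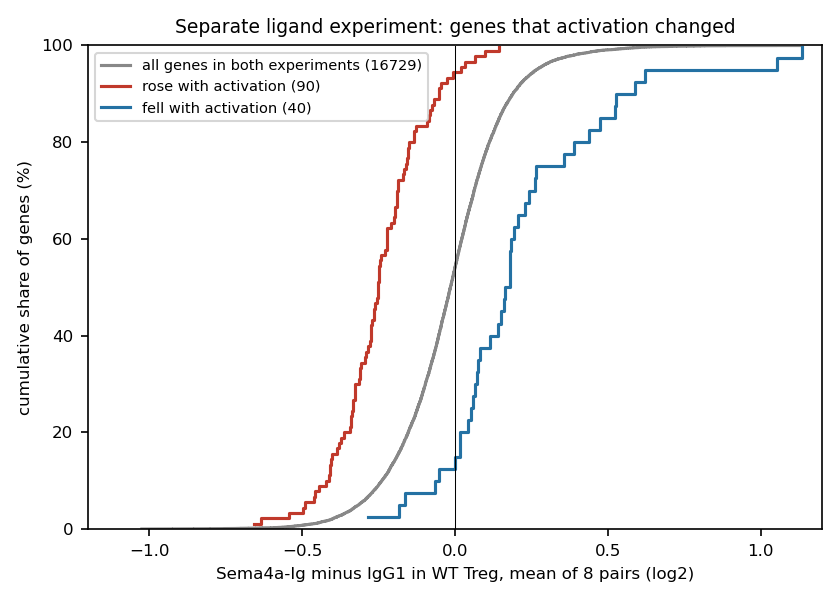
Cumulative share of genes (%) by their mean Sema4a-Ig minus IgG1 difference (log2) over 8 pairs of WT arrays, for all 16729 genes in both experiments (grey), 90 that rose with activation (red) and 40 that fell (blue). The red curve lies left of the grey one and the blue curve right of it, with medians of -0.25 and 0.17.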

How the data were processed

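The 8 sorted T cell arrays and the 32 ligand arrays were deposited in separate tables of log2 signals, 1 row for each probe set. The authors made the log2 values with RMA and Partek 6.6, and the submitters' processing notes name both with no order. RNA of the sorted cells was amplified by a 2-cycle protocol, per the labels' protocols. The platform annotation named the probe sets: of 45101, 35890 had at least 1 gene, 932 had several and 9211 had none listed. Each gene took its probe set with 1 symbol and the highest mean over the 8 arrays, which gave 18194 genes. Among the 135 called genes, 90 had 161 other probe sets, of which 136 had the same direction, 11 passed in it and 0 passed in the opposite one.

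Two-sided tests used lmFit and eBayes of limma 3.58.1, under R 4.3.3. P-values were adjusted by Benjamini and Hochberg's method across every gene of the table, with 0.05 as the threshold. The fit had 3 group means, and a second fit added the 2-level Actb class (boundary 4). A fit on group by class means gave the values within a class and their difference. Sema4a-Ig in WT was tested on pair differences of arrays with neighbouring title codes, since all 16 pairs had the same mean at each probe set within 6e-05. That fit held the WT pairs and the pairs of Nrp1-deleted Treg, with 14 residual degrees of freedom. The spread of both thus enters its SE and p-values, while the differences are those of WT alone. For 1 WT array the title and the genotype label disagree, and the title decided its group. Fits were tested on simulated data. Promoter windows came from a RefSeq table of GRCm38.p6, and 14453 of the 18194 genes had one. A probe set's level is compared with another's only to choose 1 for each gene and to mark low signals. The number of arrays limits the precision.

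The members and gene lists were chosen with earlier results of these data known. Genes were named by rule: the markers Egr2, Egr3, Irf4 and Mki67, 7 lineage and T cell genes, the 25 largest increases and 20 largest decreases past the threshold, list members past it in either fit, the largest members of lists with few, and markers of other cells. The rule gave 216 genes. The text names 121, 11 of them outside the rule. The alternatives were the Actb class, fewer arrays, array weights, a variance trend, a filter at a mean of 5, other scaling, the mean of all probe sets and each Treg array left out.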

Additional observations from a re-analysis of the deposited data

Results flagged for a closer look

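Nr1d2 (REV-ERB beta), a repressor of the circadian clock that fell with activation by 1.05 on the log2 scale, had 1 of its 8 Sema4a-Ig minus IgG1 pairs in WT Treg far from the others. Pair 1 gave 1.9966, and the next highest pair gave 0.926, a gap that took up 0.536 of the whole range. The remaining pairs lay between -0.00 and 0.47. Of 18 sets of 8 pair values examined this was the only one past Dixon's limit, and chance passes it in about 1 of 20. Groups of 3 arrays were too small for this test.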

How the results depend on the processing

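The 135 genes called for activated against resting Treg all kept their direction in each alternative that tested them (127 of them under the filter on a mean of at least 5). Where arrays are only dropped, weighted or split by class, this follows from the lack of overlap between the groups in these genes. Their number moved: 318 with the Actb class, 36 with the 6 Treg arrays alone, 24 with the low class alone, 49 within the low class, 0 within the high class (1787 at an unadjusted p under 0.05 in limma), 957 with array weights and 216 with quantile normalization repeated, an alternative chosen after seeing the data. Leaving out each Treg array in turn gave 12 to 168. With the Actb class, 750 genes were called with array weights and 0 to 676 with each Treg array left out. The test between classes called 0 genes under all 3 alternatives (361 to 716 at an unadjusted p under 0.05 in limma). Sema4a-Ig in WT gave 990 genes on pair differences, 4417 with group means over 32 arrays, which takes paired arrays as independent, and 1688 with the filter. The causes of these moves were not tested, beyond the smaller number of arrays or genes that some alternatives use by construction. Of the 67 genes the text names that passed without the class, 65 passed with it, 67 with array weights, 27 with the 6 Treg arrays alone, 12 with the low class alone, 11 without activated 1, 43 without activated 2, 34 without activated 3, and 42, 27 and 55 without resting 1, 2 and 3.

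S100a8 and S100a9, which passed no test, reversed: with the low class alone they gave -0.74 and -0.87, and leaving out each Treg array in turn gave -0.0071 (without activated 1) to 3.59 (without activated 3) for S100a8, and -0.54 to 2.64 for S100a9. No gene that passed without the class changed its sign, which the lack of overlap between the groups fixes where arrays are only dropped. Centring each array on its median moved the median difference over all genes to -0.07. No paired analysis was possible because the titles carry no replicate numbers, and no label says which arrays of the 2 groups belong together.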
